A study of Mus musculus with 12 samples.

Results

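The genes described here are the Wnt feedback target genes Notum, Sp5, Axin2, Apcdd1, Wif1, Nkd1, Rnf43, Znrf3 and Lgr5, 9 of the 24478 gene symbols measured. They were chosen by name, with their differences between lymphoma and control tissue in these same libraries already known, so those differences are described and not tested. Each symbol was read from its transcript with the most reads over the 12 libraries, and all 9 genes were found and passed the filter on low counts over the 4 groups. With controls and splenomegaly masses alone, 6 pass it, while Notum, Sp5 and Lgr5 pass only through the lymphomas, where they are high. RNA was sequenced from mouse thymic tissue in 4 groups of 3 libraries. Control tissue was labelled as T lymphocytes carrying endogenous MYC alone. Thymic lymphomas were labelled as T lymphocytes whose MYC is an ectopic mutant alone, either MYCT58A or MYCS62A, in which alanine replaces threonine 58 or serine 62. The last group held thymic masses taken from MYCS62A animals that had developed splenomegaly, and its cells are given as T and B lymphocytes with both ectopic MYCS62A and endogenous MYC. The lymphomas and the splenomegaly arose spontaneously per the labels, which give no strain, age, promoter driving the ectopic MYC or number of animals.

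In canonical Wnt signalling, secreted Wnt ligands bind a Frizzled receptor and an LRP coreceptor, the complex that degrades beta-catenin is held back, and beta-catenin joins TCF and LEF factors on DNA. Many of the genes switched on in this way encode brakes on the pathway, so their transcripts are widely read as a record of its output. In the thymus, Wnt signals and the factor TCF1, encoded by Tcf7, are needed for the growth and maturation of early thymocytes. The 9 genes act at different steps. NOTUM removes the lipid of Wnt ligands, WIF1 binds the ligands outside the cell, and APCDD1 is a membrane protein that blocks signalling at the receptor. RNF43 and ZNRF3 are ubiquitin ligases that take Frizzled receptors off the cell surface, and LGR5 is a receptor for the R-spondins, which keep those ligases in check. AXIN2 is a scaffold of the complex that degrades beta-catenin, NKD1 binds Dishevelled and dampens the signal, and SP5 is a zinc finger transcription factor that acts on Wnt target genes.

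To see what the genes share in sequence, their promoters were searched for the core sequence bound by TCF and LEF factors, CTTTGA, on both strands, and for its longer form CTTTGAT, which contains it. From the RefSeq promoter table for build GRCm38.p6, 6 entries for 5 of the genes were searched (Sp5, Nkd1, Wif1, Axin2 and 2 for Rnf43). Each covered 250 bases before the transcription start to 50 bases after it. Promoters of Apcdd1, Notum, Znrf3 and Lgr5 were not searched, so nothing is said of matches in them. The Sp5 promoter held 2 matches of CTTTGA, which begin 204 and 104 bases before the start, and 1 match of CTTTGAT. The other 5 entries searched held none of either. Among all 32851 promoters of the table, 16.0% held CTTTGA, 1.73% held it at least 2 times and 3.73% held CTTTGAT. A match is a run of letters and no evidence of binding, and its absence applies to this window alone. The Sp5 promoter (chr2:70474673-70474972, plus strand) is shown because it carries the matches, in capitals, and the Axin2 promoter (chr11:108920099-108920398, plus strand) because that gene is the pathway's usual reporter and has none here.
Sp5: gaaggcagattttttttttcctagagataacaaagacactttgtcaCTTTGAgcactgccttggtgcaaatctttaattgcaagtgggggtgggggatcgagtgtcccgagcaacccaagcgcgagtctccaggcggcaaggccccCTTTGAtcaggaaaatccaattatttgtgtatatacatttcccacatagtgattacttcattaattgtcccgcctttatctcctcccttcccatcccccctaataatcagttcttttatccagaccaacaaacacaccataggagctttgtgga
Axin2: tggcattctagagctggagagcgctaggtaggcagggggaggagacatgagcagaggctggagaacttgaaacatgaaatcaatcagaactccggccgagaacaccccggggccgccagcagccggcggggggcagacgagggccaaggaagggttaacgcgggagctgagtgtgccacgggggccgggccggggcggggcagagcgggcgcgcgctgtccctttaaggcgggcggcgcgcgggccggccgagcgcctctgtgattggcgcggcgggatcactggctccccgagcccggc

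Levels are given in CPM, in which reads are brought to a common library depth with TMM factors, with the SD over 3 libraries. Differences are log2 fold changes from edgeR with their standard error (SE). Between 9577373 and 22437969 reads per library were assigned to genes. Marker genes of 6 cell types were summed to see what the tissue held. The 12 thymocyte markers, led by Cd8a and Lck, came to 11600 to 12500 CPM in controls, 3600 to 4660 with T58A, 2670 to 4700 with S62A and 790 to 835 in the splenomegaly masses, and Ptcra was at 0 in every T58A lymphoma. The 10 thymic epithelium markers, led by Prss16 and Ccl25, came to 2300 to 2530, 135 to 201, 33.2 to 55.2 and 116 to 131 CPM in the same order, although controls are labelled as lymphocytes. The 10 B cell markers, led by Cd79b and Cd22, came to 78.3 to 85.1, 38.1 to 392, 30.1 to 51.2 and 2070 to 2760 CPM, highest in the masses that are labelled as holding B cells. The 10 macrophage markers, led by Lyz2 and C1qb, came to 615 to 725, 1840 to 2610, 1570 to 2330 and 4340 to 7940 CPM. The 10 endothelium markers came to 203 to 240, 284 to 387, 199 to 277 and 633 to 1000 CPM, and 9 fibroblast markers, counted without Thy1 because thymocytes also express it, to 269 to 324, 607 to 1970, 472 to 1510 and 721 to 1280 CPM. In such mixed tissue, more cells of a type and more RNA per cell cannot be told apart, and the part that these cell types have in the differences below was not tested. The letter in the sample titles also moves with the groups: controls 1 and 2 carry G, control 3 and all T58A lymphomas carry H, and all S62A lymphomas and splenomegaly masses carry I.

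**Figure D1:**
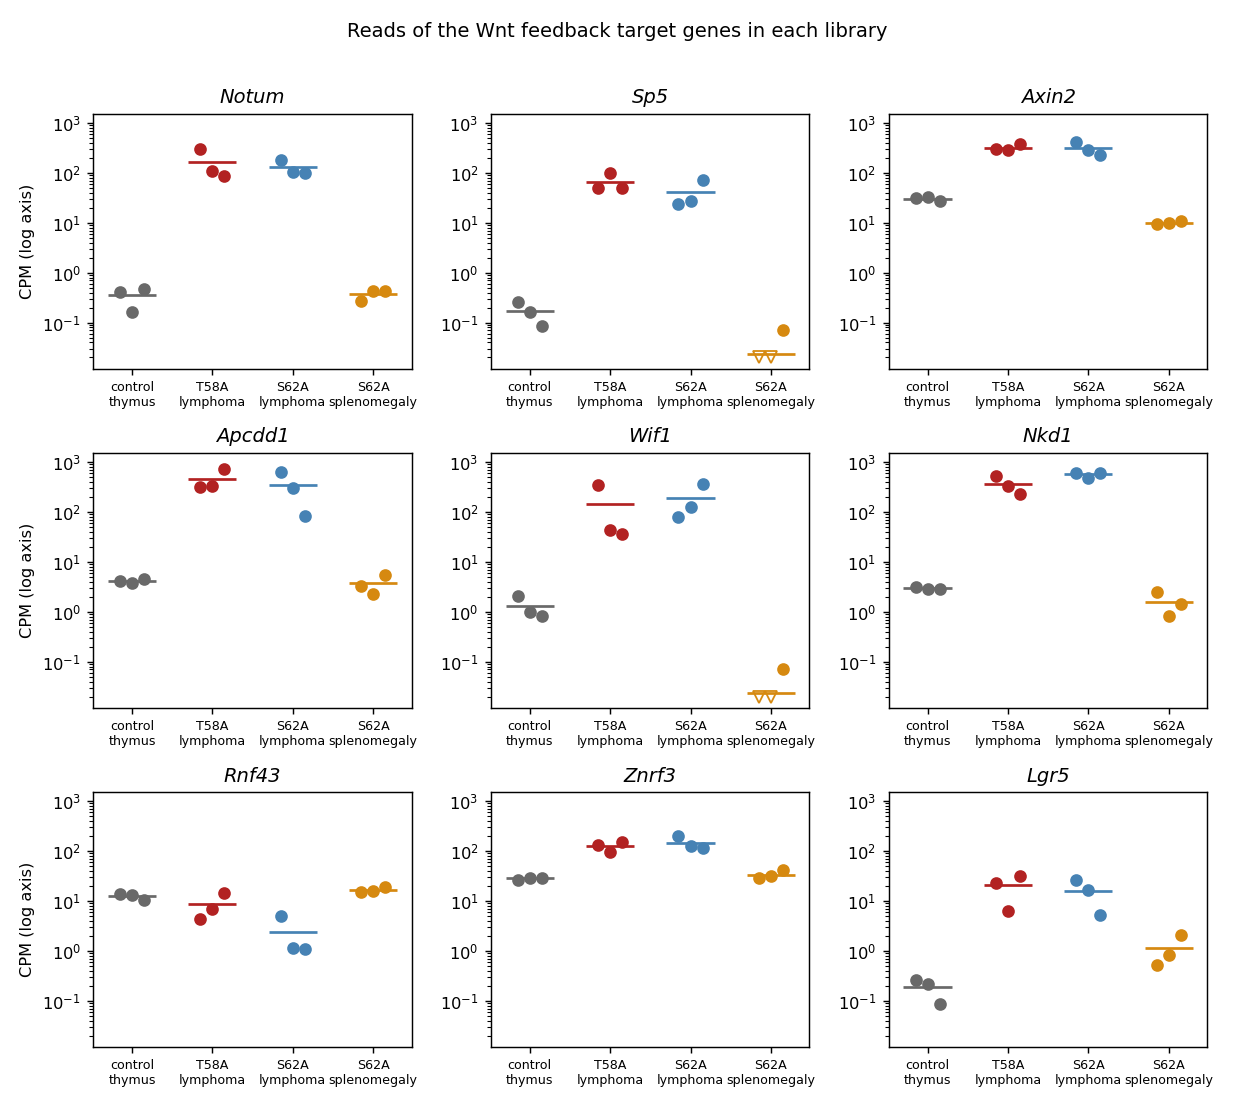
CPM of each of the 9 genes on a log axis, by library, in the 4 groups of 3 libraries; points are libraries, horizontal lines are group means and open triangles are libraries with 0 reads, drawn at the bottom edge. In 8 of the panels both lymphoma groups lie above all controls, and in the Rnf43 panel they do not.

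The extracellular and membrane inhibitors were all far above control in both lymphoma groups. Notum (NM_175263, chr11:120515103-120522151, minus strand, mm9) was nearly silent in control thymus, at 0.413, 0.165 and 0.476 CPM, or 22 reads in all. It stood at 298, 107 and 85.7 CPM in T58A lymphomas and at 180, 104 and 101 CPM in S62A lymphomas. Every lymphoma library was above every control, and the 2 lymphoma groups overlapped. The log2 fold change against control was 8.80 ± 0.63 (SE) for T58A and 8.45 ± 0.63 for S62A, the largest estimates of the 9 genes in both comparisons. Sp5, at 8.58 ± 0.67 and 7.89 ± 0.66, lay within the error of these values, so their order is not settled. Without T58A lymphoma 1, the library with the most Notum, the T58A value of Notum was 8.03. In splenomegaly masses the gene was again near silence, at 0.265, 0.421 and 0.421 CPM, within the range of the controls.

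Wif1 (NM_011915, chr10:120471060-120537698, plus strand, mm9) stood at 2.06, 0.992 and 0.823 CPM in controls. In T58A lymphomas it stood at 353, 43.1 and 35.4 CPM, and in S62A lymphomas at 78.7, 123 and 369 CPM. The lymphomas of each group thus differed from one another far more than for Axin2 or Znrf3: the highest library exceeded the lowest 9.95-fold in T58A and 4.68-fold in S62A, beside 1.28-fold and 1.89-fold for Axin2. All 6 lay above the controls, with log2 fold changes of 6.8 ± 1.07 (SE) for T58A and 7.20 ± 1.09 for S62A. A single library moved these values: the T58A value was 4.93 without T58A lymphoma 1, and the S62A value was 6.29 without S62A lymphoma 3. In splenomegaly masses Wif1 was read once among the 3 libraries, at 0, 0 and 0.0702 CPM.

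Apcdd1 (NM_133237, chromosome 18, mm9) stood at 4.13, 3.86 and 4.59 CPM in controls. It stood at 320, 337 and 725 CPM in T58A and at 632, 305 and 81.4 CPM in S62A lymphomas. Every lymphoma was above every control, and S62A lymphoma 3 was the lowest of the 6. The log2 fold change was 6.77 ± 0.74 (SE) for T58A and 6.33 ± 0.73 for S62A, the latter 5.52 without S62A lymphoma 1. The splenomegaly masses, at 3.29, 2.31 and 5.54 CPM, overlapped the controls.

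The genes that set how much receptor stays at the surface did not move as one. Znrf3 (NM_001290501, chr11:5176332-5281743, minus strand, mm9) was already present in control thymus, at 26.9, 29.5 and 29.5 CPM. It stood at 131, 95.7 and 151 CPM in T58A lymphomas and at 198, 126 and 113 CPM in S62A lymphomas, above every control. Its log2 fold changes, 2.14 ± 0.24 (SE) for T58A and 2.35 ± 0.24 for S62A, were the smallest of the 8 genes that were higher in all lymphomas.

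Rnf43 (NM_172448, chr11:87476589-87549041, plus strand, mm9), which encodes the closest relative of ZNRF3, did not share the pattern. It stood at 14.0, 13.3 and 10.5 CPM in controls and at 4.39, 6.92 and 14.6 CPM in T58A lymphomas, which overlapped the controls (log2 fold change −0.54 ± 0.56, SE; −1.15 without T58A lymphoma 3). In S62A lymphomas it stood at 4.96, 1.15 and 1.07 CPM, below every control (−2.38 ± 0.60, and −3.50 without S62A lymphoma 1). The splenomegaly masses held the highest levels of all groups, at 15.0, 16.0 and 19.4 CPM. Rnf43 is thus the one gene of the 9 whose mean was below that of the controls in both lymphoma groups. A neighbouring gene on the same strand, 1110028F11Rik, overlaps it but held only 35 reads against 2034 of Rnf43.

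Lgr5 (NM_010195, chr10:114887370-115024836, minus strand, mm9) was nearly silent in controls, at 0.258, 0.220 and 0.0866 CPM, or 11 reads in all. It stood at 22.7, 6.28 and 32.3 CPM in T58A lymphomas and at 25.7, 16.2 and 5.27 CPM in S62A lymphomas. All lymphomas exceeded all controls, with log2 fold changes of 6.74 ± 0.93 (SE) for T58A and 6.36 ± 0.92 for S62A. In splenomegaly masses it stood at 0.531, 0.841 and 2.10 CPM, above every control and below every lymphoma. The gene A930009A15Rik overlaps Lgr5 on the opposite strand and held 271 reads, all of them in lymphomas, against 1840 for Lgr5. How the authors' counting used strand is not given in the sources used here, so reads of these 2 genes cannot be told apart with certainty.

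Inside the cell, Axin2 and Nkd1 differed mainly in their starting level. Axin2 (NM_015732, chr11:108781663-108812095, plus strand, mm9) stood at 31.5, 32.2 and 27.3 CPM in controls, the highest level per length of the 9 genes there. It stood at 297, 290 and 371 CPM in T58A lymphomas and at 422, 288 and 223 CPM in S62A lymphomas. No lymphoma came near the controls, and the libraries of each group were close together, with log2 fold changes of 3.39 ± 0.22 (SE) for T58A and 3.36 ± 0.22 for S62A. In splenomegaly masses it stood at 9.39, 9.78 and 10.7 CPM, below every control.

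Nkd1 (NM_027280, chr8:91045243-91118786, plus strand, mm9) stood at 3.20, 2.92 and 2.82 CPM in controls. It stood at 534, 335 and 227 CPM in T58A and at 609, 480 and 616 CPM in S62A lymphomas. The lymphomas were far above the controls in every library, and S62A lymphomas mostly above T58A lymphomas with some overlap. The log2 fold change was 6.94 ± 0.40 (SE) for T58A and 7.57 ± 0.41 for S62A. The splenomegaly masses, at 2.44, 0.841 and 1.4 CPM, were all below the lowest control. Nkd1 and Znrf3 each had a further transcript in the files, which held 93.8% to 100% and 86.4% to 96.8% of the reads of the one used.

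Sp5 (NM_022435, chr2:70312980-70315783, plus strand, mm9), whose promoter carries the core matches shown above, stood at 0.258, 0.165 and 0.0866 CPM in controls, or 10 reads in all. In T58A lymphomas it stood at 50.6, 99.3 and 49.6 CPM, and in S62A lymphomas at 23.4, 27.4 and 72.4 CPM. The lymphomas were again all above the controls, and the 2 lymphoma groups overlapped. The log2 fold change was 8.58 ± 0.67 (SE) for T58A and 7.89 ± 0.66 for S62A, the latter 7.20 without S62A lymphoma 3. In splenomegaly masses it was read once in all, at 0, 0 and 0.0702 CPM.

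Counted together, 8 of the 9 genes were higher in every T58A lymphoma than in every control, none was lower and Rnf43 overlapped. Over all 15606 genes tested, the groups did not overlap for 60.0%, which were higher for 28.8% and lower for 31.2%. In S62A lymphomas the same 8 were higher and Rnf43 was lower, beside 60.3% of all genes without overlap, 28.0% higher and 32.3% lower. The median log2 fold change of the 9 genes was 6.77 for T58A and 6.36 for S62A, beside medians of 0.01 and 0.00 over all genes. Nothing is read from these counts, because the differences chose the genes, and both comparisons share the 3 control libraries. Control 3 is the one control whose title letter the T58A lymphomas share. Against it alone the T58A log2 fold change was larger than against all 3 controls for Sp5 (9.49), Lgr5 (7.79), Wif1 (7.45), Nkd1 (7.03) and Axin2 (3.56). It was smaller for Notum (8.41), Apcdd1 (6.66) and Znrf3 (2.11), and Rnf43 was at −0.27. These values rest on 1 control library, in which Sp5 and Lgr5 had 2 reads each, and nothing is read from their sizes.

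**Figure D2:**
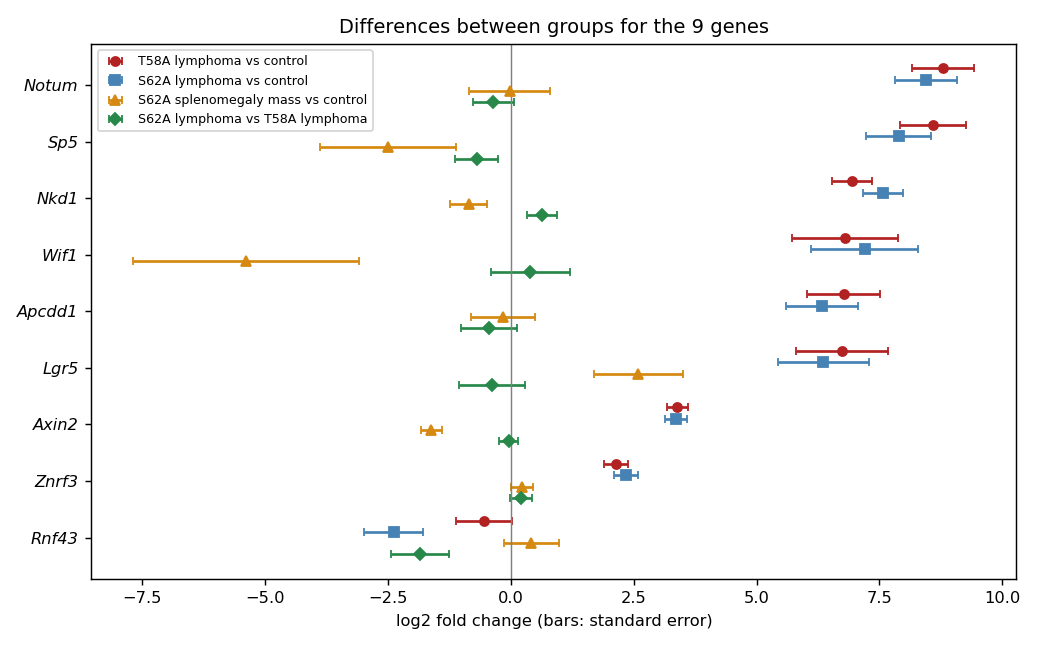
Log2 fold change of each gene in 4 comparisons, with bars for the standard error; genes are ordered by their T58A value. The T58A and S62A lymphoma values against control lie close together for most genes, whereas the S62A lymphoma against T58A lymphoma values lie near 0 except for Rnf43 at −1.84.

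Levels of different genes were compared in FPKM, the authors' reads per length and depth, which is a description with no test. In control thymus Axin2 led at 8.28 ± 0.797 FPKM (SD, n = 3), followed by Znrf3 at 4.38 ± 0.215, Rnf43 at 3.35 ± 0.521 and Apcdd1 at 1.68 ± 0.133, and none of these neighbours overlapped. Nkd1 at 0.792 and Wif1 at 0.724 FPKM overlapped each other, as did Notum at 0.233, Sp5 at 0.0885 and Lgr5 at 0.0489 FPKM in sequence. The order was different in the lymphomas. In T58A lymphomas Apcdd1 came first at 182 ± 92.8 FPKM, then Notum at 106 ± 74.2, Nkd1 at 95.1 ± 39.4, Axin2 at 85.5 ± 13.0, Wif1 at 78.1 ± 97.7 and Sp5 at 33.9 ± 14.6, each overlapping the next. Znrf3 at 18.9 ± 4.30 FPKM did not overlap Sp5 but reached the lowest Wif1 library, and Lgr5 at 5.2 ± 3.38 overlapped Rnf43 at 2.27 ± 1.41. In S62A lymphomas Nkd1 came first at 141 ± 18.1 FPKM, then Apcdd1 at 127 ± 103, Wif1 at 99.5 ± 81.6, Notum at 79.5 ± 27.2 and Axin2 at 79.1 ± 25.3, again each overlapping the next. Znrf3 at 20.8 ± 6.41 FPKM lay below the lowest library of each of these 5, Sp5 at 20.0 ± 13.2 overlapped Znrf3 and, at its highest, Apcdd1 at its lowest, and Rnf43 was last at 0.593 ± 0.547. In splenomegaly masses the ubiquitin ligases and Axin2 led, with Znrf3 at 4.78 ± 0.941 and Rnf43 at 4.15 ± 0.552 FPKM overlapping each other and Axin2 below them at 2.52 ± 0.178. Summed over the 9 genes, the level was 20.7, 20.1 and 18 FPKM in controls, 774, 460 and 586 FPKM with T58A, 690, 476 and 549 FPKM with S62A and 12.0, 12.8 and 16.4 FPKM in splenomegaly masses.

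The difference between the 2 mutants was tested, since as far as known it was not what chose the genes. A choice of genes known to differ from control in both lymphoma groups can still favour genes that are alike in them. Nothing is therefore read from the counts of calls and overlaps in this comparison. None of the 9 genes passed an adjusted p of 0.05 in edgeR's quasi-likelihood test of S62A against T58A lymphomas, 1 had an unadjusted p under 0.05, and DESeq2 called 1, in each case Rnf43. In this comparison 3.15% of all genes tested were called, 0.859% higher and 2.29% lower in S62A, and the libraries of the 2 groups overlapped for all 9 genes, whereas the groups did not overlap for 21.1% of all genes. Rnf43 was lower in S62A lymphomas, at 2.39 ± 2.23 CPM (SD) against 8.62 ± 5.29 (log2 fold change −1.84 ± 0.59, SE; edgeR adjusted p = 0.102, and 0.0275 without S62A lymphoma 1; DESeq2 adjusted p = 0.0190). Its 95% interval ran from −3.13 to −0.55. Nkd1 had the next largest difference for its error, at 569 ± 76.8 CPM in S62A and 366 ± 156 in T58A lymphomas (0.64 ± 0.30, edgeR adjusted p = 0.229, interval −0.02 to 1.30). The interval was narrow for Axin2, from −0.48 to 0.40 around −0.04 ± 0.20, and for Znrf3, from −0.30 to 0.71 around 0.21 ± 0.23. It was wide for Wif1, from −1.35 to 2.15 around 0.40 ± 0.80, and for Lgr5, from −1.85 to 1.10 around −0.38 ± 0.67. Changes of more than 2-fold in either direction are therefore not excluded for Wif1 and Lgr5. For Notum the interval ran from −1.25 to 0.56, for Sp5 from −1.66 to 0.27 and for Apcdd1 from −1.68 to 0.80. The direction of several of these small differences turned when 1 lymphoma was left out. The title letter differs between the 2 groups throughout, so letter and mutant cannot be told apart.

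Within each lymphoma group the genes did not rank the libraries alike. Axin2, Apcdd1, Znrf3, Lgr5 and Rnf43 were highest in T58A lymphoma 3 among T58A lymphomas and in S62A lymphoma 1 among S62A lymphomas. Apcdd1 deviated on the log2 scale by 0.76 from its group mean in T58A lymphoma 3 and by 1.34 in S62A lymphoma 1, and Axin2 by 0.23 and 0.49 in the same libraries. Wif1 was lowest in those 2 libraries, with deviations of −1.20 and −0.96. Wif1 was instead highest in T58A lymphoma 1, by 2.11, and in S62A lymphoma 3, by 1.27. Notum and Nkd1 were also highest in T58A lymphoma 1, by 1.09 and 0.64. Among S62A lymphomas Notum was highest in S62A lymphoma 1, by 0.54. Nkd1 was nearly level there between S62A lymphoma 3, at 0.13, and S62A lymphoma 1, at 0.11. Sp5 was highest in T58A lymphoma 2, by 0.66, and in S62A lymphoma 3, by 1.01, the library in which Apcdd1 stood furthest below its group mean, at −1.62. These are deviations in 6 libraries and are a description without a test. In S62A lymphoma 3 the thymocyte marker sum was lowest, at 2670 CPM against 4450 and 4700, and the thymic epithelium sum highest, at 55.2 against 33.2 and 44.8. In T58A lymphoma 3 the B cell marker sum was lowest, at 38.1 CPM against 276 and 392. The macrophage sum, 1840 against 2610 and 2470, and the endothelium sum, 284 against 294 and 387, were also lowest there. The thymic epithelium sum, 201 against 135 and 141, and the fibroblast sum with Thy1, 4410 against 2220 and 2600, were highest there. The part of these sums in the deviations was not tested.

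**Figure D3:**
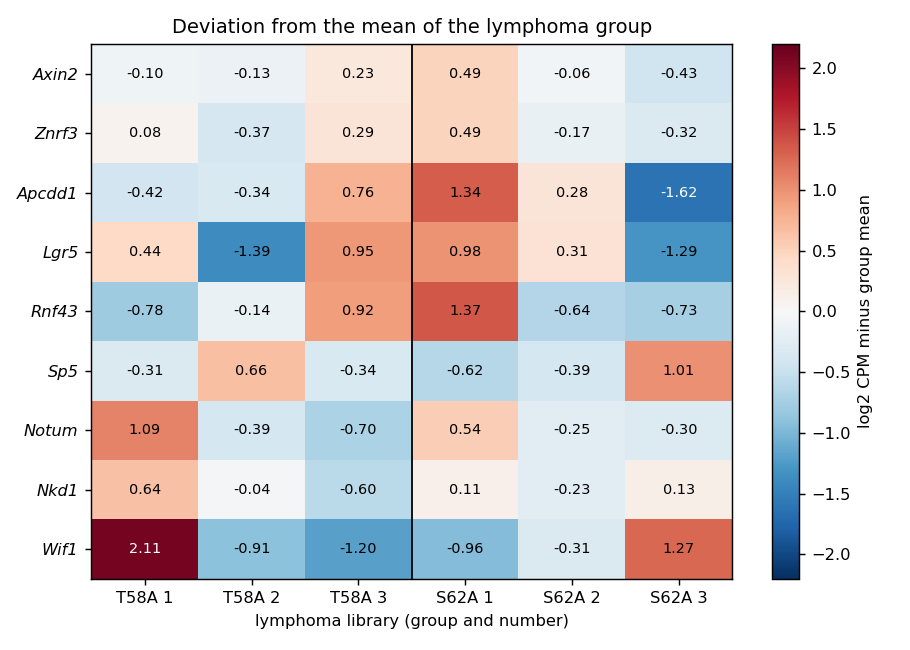
Deviation of the log2 CPM of each gene from the mean of its lymphoma group, in the 6 lymphoma libraries; colour and printed numbers show the deviation in log2 units, and the vertical line separates the groups. The upper 5 genes are above their means in T58A 3 and S62A 1, while Wif1 is above in T58A 1 and S62A 3.

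The splenomegaly masses express the same ectopic MYCS62A together with endogenous MYC, and their libraries had no part in choosing the genes, although the controls did. Notum, Sp5 and Lgr5 passed the filter on low counts only through the lymphomas, so nothing is read from their tests against control. Of the other 6 genes, Axin2 alone passed the test against control in the fit of all 12 libraries. There 49.2% of all genes tested were called, 22.9% higher and 26.3% lower. In a fit of masses and controls alone, 2 of these 6 genes were called, both lower, Axin2 and Wif1. Axin2 fell to 9.97 ± 0.691 CPM (SD, n = 3) from 30.4 ± 2.65, a log2 fold change of −1.61 ± 0.21 (SE, edgeR adjusted p = 0.000133), and was lower in 3 of 3 masses than in any control. That call held under every alternative and with each library left out, with adjusted p between 5.49e-10 and 0.00119. Lgr5 stood at 1.16 ± 0.834 CPM (SD) beside 0.188 ± 0.0901 in controls, a log2 fold change of 2.60 ± 0.90 (SE), on 48 reads against 11. That value was 1.87 without splenomegaly mass 3, 1.23 in limma on log2(FPKM + 0.1) and 0.27 on log2(FPKM + 1).

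Wif1, at 0.0234 ± 0.0405 CPM (SD) against 1.29 ± 0.673 in controls, had 1 read against 77, a ratio of 54.1-fold lower with a counting interval of 9.43 to 2170, and an adjusted p of 0.0717 in edgeR. Nkd1, at 1.56 ± 0.811 against 2.98 ± 0.199 CPM, had a log2 fold change of −0.85 ± 0.38 (SE, edgeR adjusted p = 0.0825). Both were below every control in all 3 masses, and their calls depended on the setting. Wif1 passed with the 2 groups alone (edgeR adjusted p = 0.00165), without T58A lymphoma 1 (0.00869), in DESeq2 (0.00113) and in limma on log2(FPKM + 0.1) (0.013). Nkd1 passed with library size only (edgeR adjusted p = 0.0457), without T58A lymphoma 1 (0.0408), T58A lymphoma 3 (0.0456) or splenomegaly mass 1 (0.0254), and in limma on log2(FPKM + 0.1) (0.0284). Sp5 had 1 read against 10 in controls, 7.03-fold lower with a counting interval of 1 to 305. Notum was at −0.02 ± 0.83 (SE), and Apcdd1 did not pass the test, at −0.16 ± 0.65 (edgeR adjusted p = 0.857). The intervals of Notum and Apcdd1, −1.85 to 1.81 and −1.58 to 1.27, still allow changes of more than 2-fold in either direction. Znrf3 at 0.23 ± 0.23 (adjusted p = 0.427) and Rnf43 at 0.42 ± 0.56 (adjusted p = 0.559) did not pass either. Without overlap, 2 of the 9 genes were higher and 4 lower in the masses, beside 70.5% of all genes without overlap, 32.0% higher and 38.5% lower. Beside these values, the B cell, macrophage and endothelium markers were higher and the thymocyte markers lower in the masses than in any control, and the part of that in the results was not tested.

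Set against S62A lymphomas, which share the ectopic mutant, the masses were lower for 8 of the 9 genes in every library and higher for Rnf43. Over all genes the groups did not overlap for 58.1%, 27.9% higher and 30.2% lower, and because the S62A lymphomas helped to choose the genes no test is given. The log2 fold change was −8.47 ± 0.65 (SE) for Notum, −8.42 ± 0.43 for Nkd1, −6.49 ± 0.74 for Apcdd1, −4.96 ± 0.24 for Axin2, −3.76 ± 0.78 for Lgr5 and −2.11 ± 0.24 for Znrf3. Rnf43 was higher by 2.80 ± 0.60. For Wif1 and Sp5, read once each in the masses, the ratio of reads per depth was 8100-fold with a counting interval of 1450 to 320000 and 1750-fold with an interval of 314 to 69300. The mouse Myc gene was at 173 ± 26.1 CPM (SD) in S62A lymphomas, 91.9 ± 7.89 in the masses, 143 ± 13.4 with T58A and 82.8 ± 2.82 in controls. Whether reads of ectopic MYC fall in this count was not tested.

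The other genes of the Wnt pathway were read from a list of 108 genes by role, of which 92 passed the filter on low counts. In T58A lymphomas 27 rose and 7 fell against control, 37.0% of those tested beside 36.2% of all genes (18.8% higher and 17.4% lower), with a median log2 fold change of 0.22 against 0.01 over all genes. In S62A lymphomas 17 rose and 11 fell, 30.4% beside 44.1% of all genes (21.9% higher and 22.2% lower), with a median of 0.08 against 0.00. The T58A count was smaller with fewer controls: 21 without control 1, and 5 with control 3 as the only control, where the title letter is the same and 413 genes in all were called.

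Among other reported Wnt target genes, 7 of 15 tested rose and none fell in T58A lymphomas, and 5 rose and 3 fell in S62A lymphomas. Tnfrsf19, a TNF receptor family member also known as Troy, stood at 1.60, 1.82 and 1.60 CPM in controls. It rose to 66.6, 65.5 and 119 CPM in T58A lymphomas (log2 fold change 5.64 ± 0.40, SE, edgeR adjusted p = 6.34e-06) and to 136, 58.6 and 69.0 CPM in S62A lymphomas (5.71 ± 0.40, adjusted p = 4.77e-06). In the masses it fell to 0.334 ± 0.135 CPM (SD; −2.24 ± 0.50, SE, edgeR adjusted p = 0.0035), so that it was high and low in the same groups as Axin2. Dact1, which encodes a Dishevelled binding protein, rose from 4.87 ± 0.212 CPM (SD) to 38.1 ± 6.09 in T58A (2.97 ± 0.40, adjusted p = 0.000291) and 59.4 ± 32.0 in S62A lymphomas (3.61 ± 0.41, adjusted p = 7.15e-05). Dact1 also rose in the masses, to 23.0 CPM (2.24 ± 0.39, adjusted p = 0.000788). Sox9, a transcription factor of progenitor cells, fell in S62A lymphomas from 7.35 ± 0.570 to 0.479 ± 0.314 CPM (−3.93 ± 0.98, adjusted p = 0.00787).

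Of 13 Wnt ligands tested, 4 rose and 1 fell in T58A lymphomas and 3 rose and 2 fell in S62A lymphomas. Wnt6 stood at 0.929, 0.992 and 0.823 CPM in controls. It rose to 99.7, 17.2 and 25.1 CPM in T58A (5.69 ± 0.79, SE, edgeR adjusted p = 0.000355) and to 61.0, 44.5 and 156 CPM in S62A lymphomas (6.57 ± 0.81, adjusted p = 0.000128). Wnt5b, a ligand best known for signalling without beta-catenin, rose from 15.5 ± 1.99 CPM (SD) to 74.6 ± 17.9 and 90.3 ± 83.4 (adjusted p = 0.00894 and 0.00411). Wnt4 fell from 40.2 ± 6.09 CPM to 3.39 ± 1.85 in T58A (−3.56 ± 0.85, adjusted p = 0.00765) and 1.29 ± 1.48 in S62A lymphomas (−4.95 ± 0.92, adjusted p = 0.00152). Wnt4 is known from thymic epithelium, whose marker sum was also lower in every lymphoma than in every control, and the part of those cells was not tested.

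Among 15 receptors and coreceptors, 6 rose and 1 fell in T58A lymphomas and 2 rose and 4 fell in S62A lymphomas. Ryk, a Wnt receptor of the tyrosine kinase family, rose from 10.8 ± 1.37 CPM (SD) to 64.4 ± 1.27 in T58A (2.58 ± 0.16, SE, edgeR adjusted p = 2.88e-06) and 92.8 ± 11.1 in S62A lymphomas (3.10 ± 0.16, adjusted p = 1.03e-06). The coreceptor gene Lrp5 fell in T58A lymphomas from 44.2 ± 2.36 to 18.3 ± 5.86 CPM (−1.28 ± 0.34, adjusted p = 0.014). In S62A lymphomas Lrp5 was also below every control, at 21.1, 14.7 and 9.2 CPM. Fzd10, a Frizzled receptor, fell in S62A lymphomas from 15.2 ± 1.87 to 0.204 ± 0.135 CPM (−6.18 ± 1.01, adjusted p = 0.000693). Of 13 other extracellular inhibitors, 5 rose in T58A and 2 in S62A lymphomas, and none fell. Dkk3, a Dickkopf family member, rose in both, from 1.33 ± 0.461 CPM to 22.5 ± 11.2 and 8.58 ± 2.15 (adjusted p = 0.000214 and 0.00154).

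The genes that carry the signal inside the cell were read next. In the complex that degrades beta-catenin, 1 of 11 rose and 2 fell in T58A lymphomas, and 2 rose and none fell in S62A lymphomas. Gsk3b, its kinase, fell in T58A lymphomas from 142 ± 4.36 to 94.2 ± 9.56 CPM (SD; −0.59 ± 0.13, SE, edgeR adjusted p = 0.0045), and Tnks2, which encodes a tankyrase that destabilises AXIN proteins, rose from 293 ± 4.71 to 419 ± 58.1 in T58A and 509 ± 8.19 in S62A lymphomas (adjusted p = 0.00753 and 0.000478). Of 14 genes for beta-catenin and nuclear factors, 3 rose and 1 fell in each lymphoma comparison. Ctnnb1, which encodes beta-catenin, rose from 567 ± 10.7 to 1130 ± 85.2 CPM in T58A (0.99 ± 0.13, adjusted p = 0.000209) and 1120 ± 136 in S62A lymphomas (0.99 ± 0.13, adjusted p = 0.00015). Ctnnbip1, which encodes an inhibitor of the contact between beta-catenin and TCF, also rose, from 25.1 ± 3.12 to 54.9 ± 9.52 and 48.1 ± 9.63 CPM (adjusted p = 0.00103 and 0.00237). Tle2, a corepressor gene, fell from 21.0 ± 2.19 to 5.68 ± 2.40 and 4.80 ± 1.85 CPM (adjusted p = 0.00257 and 0.00105).

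In the splenomegaly masses 17 of the 92 genes rose and 27 fell against control, 47.8% beside 49.2% of all genes, with a median of −0.16 against −0.08. Tcf7, which encodes TCF1, fell from 4170, 4040 and 4180 CPM in controls to 149, 122 and 189 CPM (−4.75 ± 0.20, SE, edgeR adjusted p = 1.55e-07). Lef1, which encodes the related factor LEF1, fell from 383 ± 39.1 CPM (SD) to 16.0 ± 1.57 (−4.58 ± 0.46, adjusted p = 2.24e-05). Both factors are abundant in thymocytes, and the thymocyte marker sum was at 790 to 835 CPM in these libraries, a link that was not tested. Of 15 other reported Wnt target genes, 4 rose and 5 fell. Cd44, which many immune cells express, rose from 31.0 ± 0.414 to 389 ± 68.0 CPM, and Ccnd1 from 18.9 ± 5.81 to 135 ± 51.3 CPM (adjusted p = 0.000146 and 0.000414). Ephb2, an ephrin receptor gene, fell from 20.9 ± 5.94 to 1.94 ± 0.768 CPM (−3.38 ± 0.76, adjusted p = 0.00362), and Tnfrsf19 fell as given above. Sostdc1, an extracellular inhibitor, rose from 0.978 ± 0.249 to 64.2 ± 22.6 CPM (6.03 ± 0.54, adjusted p = 9.93e-06). Against S62A lymphomas, 18 of the 92 rose and 29 fell, 51.1% beside 54.3% of all genes (25.6% higher and 28.6% lower).

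**Figure D4:**
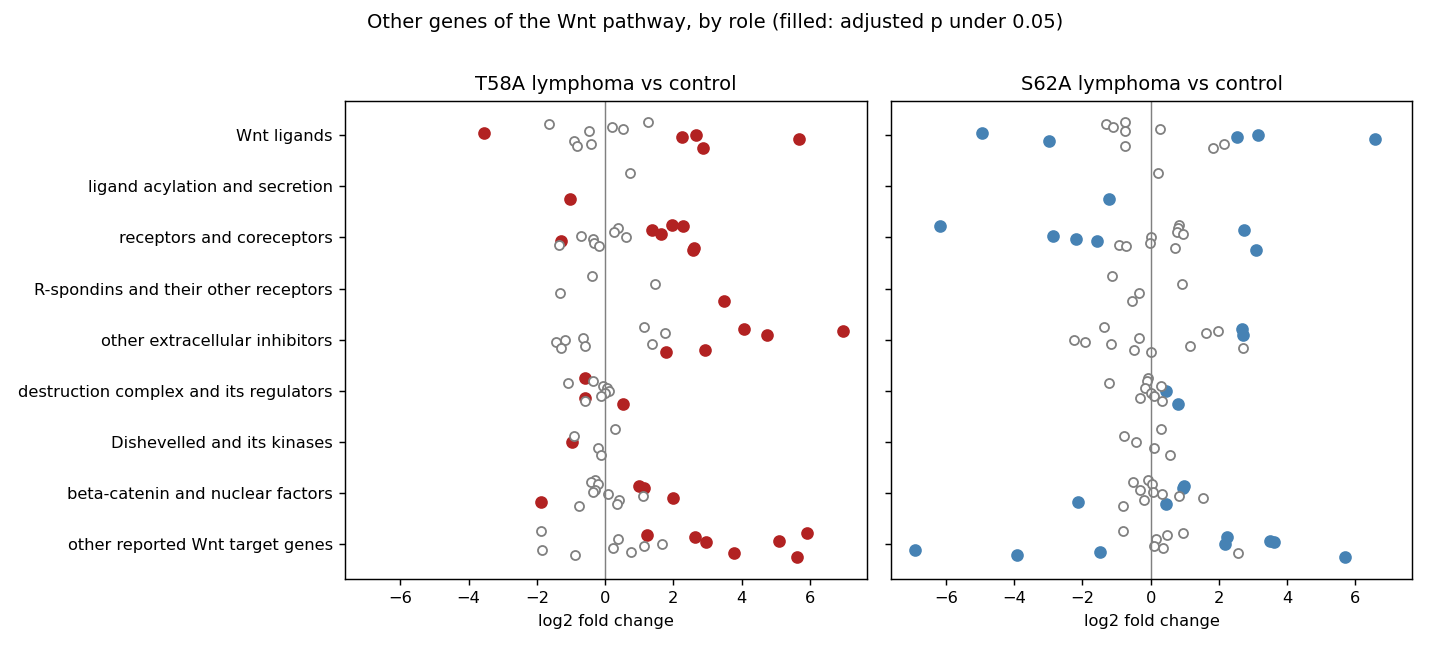
Log2 fold change of the 92 other Wnt pathway genes tested, by role, in T58A (left) and S62A (right) lymphomas against control; filled points passed an adjusted p of 0.05 and open points did not. Ligands, receptors, extracellular inhibitors and target genes spread widely, while genes of the destruction complex and Dishevelled stay within about 2 log2 units of 0.

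The genes whose pattern over the 12 libraries was most like that of the 9 were named by Pearson's r between log2 CPM and the mean of the 9 standardised genes. They were ranked among 12172 other genes with a mean of 5 CPM or more in some group, predicted genes (Gm numbers and Rik names) left out. Smyd2, a lysine methyltransferase gene, came first (r = 0.992), at 31.7 ± 1.49 CPM (SD) in controls, 121 ± 24.9 with T58A, 97.2 ± 18.5 with S62A and 26.4 ± 1.4 in the masses. Klf17 and Esx1, transcription factor genes known from early embryo and from placenta and testis, followed (r = 0.991 and 0.988). Klf17 was at 0 in every mass and at 0.103 CPM or less in controls, and at 5.27 to 45.1 CPM in the lymphomas. Esx1 was at 0.315 CPM or less in controls and masses and at 23.7 to 221 CPM in lymphomas. Islr2 and Ism1 came next (r = 0.987 and 0.986), below 1 CPM in controls and masses and at 17.1 to 103 and 66.2 to 157 CPM in lymphomas. The libraries fall into groups, and genes that share any difference between lymphomas and the rest score high, so r is a description over 12 libraries. Of the 9 genes themselves, 8 had an r of 0.90 to 0.99 with the mean of the other 8, and Rnf43 had −0.69.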

How the data were processed

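Poly(A) RNA of mouse thymic tissue was extracted with Trizol and sequenced from strand-keeping libraries on an Illumina HiSeq instrument, per the labels' protocols. The authors deposited raw read counts of every RefSeq transcript, as whole numbers without normalization, and FPKM values, one file of each kind for a library. Per the submitters' processing notes, the genome build was mm9, and DESeq2, Bowtie 1.0.0 and bcl2fastq 2.20.0.422 were used. Which program counted the reads, whether it used strand and how it handled reads with several matches is not given in the sources used here. Starts in the authors' files count from 0 and are printed from 1: of 17610 genes with 1 transcript, the span equalled that in RefSeq for 9425 when counted from 0 and 465 from 1.

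The members, the lists and the tests were chosen with earlier results of these data known. Each symbol took its transcript with the most reads. The counts were fitted with edgeR 4.0.16 (R 4.3.3). Its filterByExpr kept 15606 of 24478 genes at a minimum count of 10. After TMM scaling, all 12 libraries entered 1 quasi-likelihood model that had group as its only term. P-values were adjusted by Benjamini and Hochberg over all genes tested in a comparison, and 0.05 was the threshold. CPM are reads over the TMM-scaled library size. Intervals of fold changes are 95% intervals of the fit, and counting intervals are exact 95% intervals of 2 Poisson counts. Counting intervals cover counting error only, since reads are not independent molecules. Alternatives used DESeq2 1.42.0 and, on log2(FPKM + 0.1) and log2(FPKM + 1), limma 3.58.1. The model was also run on simulated data in which few genes changed, unlike these data, and nothing is read from that run here.

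Named beside the 9 genes and Myc were, per comparison and role of the pathway list, up to 2 risen and 2 fallen genes with the smallest adjusted p, the 5 genes most like the members and the 2 leading marker genes of a list. Tnfrsf19, Wnt6 and Tcf7 are also given by library, and not every gene so chosen is printed. Controls 1 and 2 were much closer to each other (chi-square per degree of freedom of 2.65) than any other pair of libraries within a group (18.95 to 115.5), though still beyond sampling noise, and replicates follow the labels alone. Separate animals are not stated in the labels, and p-values therefore measure only the spread among these libraries, which may be technical.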

Additional observations from a re-analysis of the deposited data

Results flagged for a closer look

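None of the 9 feedback genes differed between the lymphoma groups past the threshold in edgeR's quasi-likelihood test, with 1 (Rnf43) at an unadjusted p under 0.05 and 1 by DESeq2. Of the 92 other genes of the Wnt pathway list tested, 6 were called, or 6.52%, all lower in S62A than in T58A lymphomas. Over all genes tested 3.15% were called, and there too more were lower in S62A (2.29%) than higher (0.859%). Nothing is read from these counts. Fzd10, a Frizzled receptor gene, stood at 6.64, 108 and 105 CPM in T58A and at 0.0636, 0.216 and 0.333 CPM in S62A lymphomas, a log2 fold change of −8.45 ± 1.05 (SE, edgeR adjusted p = 0.0106). Fzd6, another Frizzled receptor gene, stood at 2.48, 9.27 and 11.2 against 2.04, 1.80 and 1.27 CPM (−2.17 ± 0.52, edgeR adjusted p = 0.0488). The inhibitor genes Sostdc1 and Dkk4 were lower by −3.44 ± 0.51 (edgeR adjusted p = 0.0166) and −4.99 ± 1.16 (adjusted p = 0.0451), the latter on low levels of 1.85 to 13.2 CPM in T58A and 0 to 0.382 CPM in S62A lymphomas. Of the reported target genes, Bmp4 stood at 102, 99.1 and 237 against 12.0, 1.65 and 0.333 CPM (−4.96 ± 0.91, edgeR adjusted p = 0.0236), and Msx1 at 1.67 to 3.57 against 0.503 to 0.600 CPM (−2.24 ± 0.44, adjusted p = 0.0287). In all 6 genes every S62A lymphoma was below every T58A lymphoma. The count fell to 2 without control 2 or S62A lymphoma 2 and to 0 when only the 6 lymphoma libraries were fitted, and the title letter differs between the groups.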

How the results depend on the processing

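Of 906 alternative values of the 9 genes, 825 kept their direction and, where tested, their side of the threshold or, where not, stayed within 1 SD; 43 untested values moved by more, 6 lost and 11 gained a call, and 21 changed sign, all in differences that passed no test. Against control, Notum in splenomegaly masses turned from −0.02 to 0.02 with DESeq2 size factors, 0.01 with no filter on low counts, 0.05 in DESeq2 and 0.02 in limma on log2(FPKM + 0.1). Leaving out 1 library gave −0.33 to 0.27 for Notum and −0.49 to 0.06 for Apcdd1 there. Between S62A and T58A lymphomas it gave −0.67 to 0.42 for Notum, −0.32 to 0.15 for Axin2, −1.26 to 0.05 for Apcdd1, −0.51 to 2.28 for Wif1, −0.08 to 0.36 for Znrf3 and −0.93 to 0.12 for Lgr5. The 9 genes held 1 to 4 calls in splenomegaly masses with 1 library left out, and 0 to 1 between the lymphoma groups. Between the lymphoma groups they held 1 in DESeq2. The calls held or lost in splenomegaly masses include those of Lgr5, from which nothing is read. The number of all genes called between S62A and T58A lymphomas was 492, with 108 to 783 when 1 library was left out, 0 with only the 2 groups fitted and 1754 in DESeq2. The pathway list held 6, with 2 to 6, 0 and 14 under the same changes. For T58A lymphomas against control, title letter H alone left 413 of 5646 genes and 5 of 34 pathway genes, with control 3 as the lone control, assumed to vary like the other groups, and leaving out 1 library gave 21 to 39 pathway genes. Folds of genes near 0 in a group were smaller in limma on log2(FPKM + 1), such as 2.38 for Lgr5 in T58A lymphomas against control. The cause of these changes was not tested, beyond the fewer libraries in those fits. Genes with under 25 reads in a group (Notum, Sp5 and Lgr5 in controls, and Notum, Sp5 and Wif1 in splenomegaly masses) have levels limited by depth. No paired analysis was possible because the labels give the groups no shared replicate numbers.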
